A study of Mus musculus with 2 samples.

Results

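The miR-200 family comprises 5 microRNA genes, Mir200b, Mir200a, Mir429, Mir200c and Mir141, chosen by name out of 1973 annotated miRNA genes counted in newborn mouse bladder. All 5 had a row of their own and were detected in both libraries. The samples were 2 microRNA-seq libraries in 1 group with no treatment, each made from 1 whole bladder of a postnatal day 0 pup of strain B6NCrl, sex not collected. The labels name pup 1 and pup 2 of a single pregnancy, under a single donor entry. Pup 1 had 7460621 sense-strand counts at miRNA genes and pup 2 had 3636650, so values of pup 2 carry the larger counting error. Levels are sense-strand counts per 1000000 sense-strand gene counts of the library (CPM). Errors over pups are SDs with n = 2, and intervals are exact 95% binomial intervals that cover counting error only.

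MicroRNAs are short RNAs, cut from hairpin precursors, that pair with messenger RNAs through a seed near their 5′ end and lower the output of those messages. The miR-200 family is a textbook marker of epithelial cells. It represses the transcription factors Zeb1 and Zeb2, which in turn repress the miR-200 genes, and this mutual repression is a known switch between epithelial and mesenchymal states. In the bladder the epithelium is the urothelium, which lines a wall of connective tissue and smooth muscle.

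The 3p strands, the arm usually taken as the main product of these hairpins, are shown with the seed (bases 2 to 8) in capitals, because the seed divides the family into groups that cut across the genomic clusters. All 5 genes matched the RefSeq miRNA table (GRCm38.p6) by symbol and by start and end.
miR-429-3p: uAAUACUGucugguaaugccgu
miR-200c-3p: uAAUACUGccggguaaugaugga
miR-200b-3p: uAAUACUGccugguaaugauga
miR-141-3p: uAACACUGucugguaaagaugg
miR-200a-3p: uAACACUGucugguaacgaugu
Mir429, Mir200c and Mir200b share the seed AAUACUG, and Mir141 and Mir200a share AACACUG. Counting from 1 at the 5′ end of the mature strand, the seeds differ by U4C from miR-200b-3p to miR-200a-3p. Among the 1738 mature miRNAs in the RefSeq table, none outside the family had either seed at bases 2 to 8. Within a seed group, miR-200b-3p and miR-200c-3p differed by U11G and A22G over the 22 bases compared, and miR-200a-3p and miR-141-3p by C17A and U22G. miR-200b-3p and miR-429-3p, whose genes lie in the same genomic cluster, differed at 4 bases, C9U, A19C, U20C and A22U.

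The tables count each hairpin as a whole, so both arms of a hairpin fall into 1 value. The hairpins of the most abundant gene of each cluster are shown with the 5p and 3p arms in capitals.
Mir429: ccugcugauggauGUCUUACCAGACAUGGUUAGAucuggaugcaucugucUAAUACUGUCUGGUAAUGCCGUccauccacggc
Mir200c: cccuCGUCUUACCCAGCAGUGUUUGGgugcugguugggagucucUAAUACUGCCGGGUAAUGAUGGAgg
Reads that mapped to several places were listed apart from the genes and made up 22.7% of reads in pup 1 and 24.8% in pup 2, so similarity between genes matters for these counts. The longest run of bases that a member's hairpin shared with any of 1004 other hairpins of the table was 17, between Mir200a and Mir141. It was 14 between Mir200b and Mir200c, and 12 for Mir429, with Mir200a. No other hairpin shared 18 or more bases with a member. The 1004 hairpins compared do not cover all 1973 counted genes.

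Mir200b (ENSMUSG00000065549.2), Mir200a (ENSMUSG00000065400.1) and Mir429 (ENSMUSG00000065427.1) lie in this order within 1846 bases of chromosome 4, on the minus strand of GRCm38. Mir200b is at 156055681 to 156055750, Mir200a at 156054896 to 156054985 and Mir429 at 156053905 to 156053987. In GENCODE M21 all 3 lie in introns of the protein-coding gene Ttll10 on the same strand. Mir200b and Mir200a also sit inside an intron of Gm13648, a non-coding gene, whereas Mir429 overlaps an exon of it. Mir200c (ENSMUSG00000065462.2) at 124718322 to 124718390 and Mir141 (ENSMUSG00000065474.1) at 124717914 to 124717985 lie within 477 bases of chromosome 6, also on the minus strand. Both sit inside an intron of Gm15884, a non-coding gene, and Mir141 also overlaps an exon of the gene model Gm29008. No annotated gene overlapped a member on the opposite strand.

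The family was expressed in both bladders, with a sum of 10153 CPM for pup 1 and 9610 CPM for pup 2, or 0.988% ± 0.038 of all miRNA counts. The 3 genes whose 3p strand carries the seed AAUACUG accounted for most of it. With both arms counted together, they summed to 9349 and 8823 CPM, 92.1% of the family in pup 1 and 91.8% in pup 2. The counts do not separate the arms, so the share of reads that carry either seed was not measured. The 2 members with the seed AACACUG summed to 803 and 787 CPM. The ratio of the seed groups was 11.6 in pup 1 (11.3 to 11.95) and 11.2 in pup 2 (10.8 to 11.7), and these intervals overlapped. Because the library is whole tissue, fewer epithelial cells and less of a miRNA per epithelial cell cannot be told apart.

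Mir429, the most abundant member, had 36361 counts in pup 1 and 17313 in pup 2, which gave 4874 and 4761 CPM (mean 4817 ± 79.9). It ranked 23 of all genes in pup 1 and 22 in pup 2 and held 48.0% and 49.5% of the family's counts. Mir200c followed with 18113 and 7691 counts, or 2428 and 2115 CPM (2271 ± 221). Its rank was 36 in pup 1 and 42 in pup 2, the widest spread between the pups among the AAUACUG members. Mir200b had 15278 and 7083 counts, or 2048 and 1948 CPM (1998 ± 70.8), and ranked 45 and 44. Mir141 had 3459 and 1627 counts, or 464 and 447 CPM (456 ± 11.5). Mir200a was the lowest member, with 2533 and 1234 counts, or 339.5 and 339.3 CPM (339.4 ± 0.14), and ranked 108 and 109. All 5 lay above the median of 74.0 CPM over the 335 detected genes, those with at least 1 CPM and 3 counts in both libraries.

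**Figure D1:**
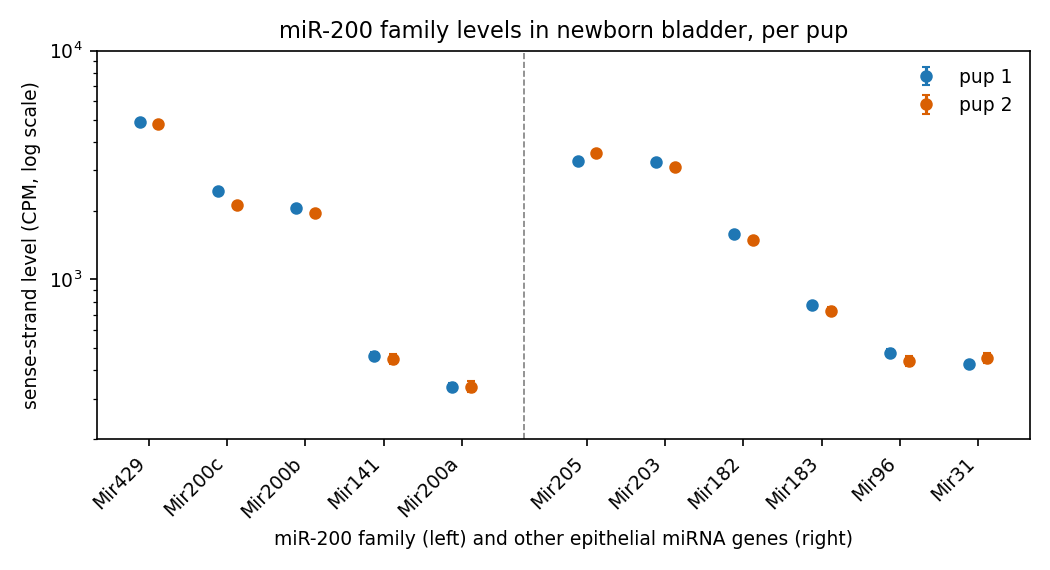
Sense-strand level in CPM (log scale) of the 5 miR-200 genes, left of the dashed line, and of 6 other epithelial miRNA genes, right of it. Points are the single libraries of pup 1 and pup 2 and bars are exact 95% binomial intervals; Mir429 stands highest at 4874 and 4761 CPM, and Mir200a lowest at 339.5 and 339.3 CPM.

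Levels in CPM are not divided by gene length, and values per annotated base of the hairpin gene are given beside the main ones. The order Mir429, Mir200c, Mir200b, Mir141, Mir200a was the same in both pups. Mir429 stood 2333 CPM clear of Mir200c, comparing its lower pup with the higher pup of Mir200c. Mir200c and Mir200b were the closest neighbours. Their ranges over the pups did not overlap, but the gap of 67.0 CPM was smaller than the 313 CPM by which the pups differed in Mir200c, so their order was not separated beyond the spread of Mir200c. Mir200b stood 1484 CPM above Mir141, and Mir141 stood 108 CPM above Mir200a, each more than the pups differed in either gene. Per 100 annotated bases of the hairpin gene the order was the same, with 5804 CPM for Mir429, 3292 for Mir200c, 2854 for Mir200b, 633 for Mir141 and 377 for Mir200a.

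Genes of 1 cluster, which can be cut from a common primary transcript, were far from equal. On chromosome 4, Mir429 counts were 14.4-fold those of Mir200a in pup 1 (13.8 to 15.0) and 14.0-fold in pup 2 (13.2 to 14.9), and 15.4-fold per annotated base. Mir429 counts were also 2.38-fold those of Mir200b in pup 1 and 2.44-fold in pup 2. On chromosome 6, Mir200c counts were 5.24-fold those of Mir141 in pup 1 (5.05 to 5.43) and 4.73-fold in pup 2 (4.48 to 4.99), and 5.20-fold per annotated base. In both clusters the AACACUG member was the lowest. The levels did not follow the order along chromosome 4, where Mir200a lies between its more abundant neighbours.

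**Figure D2:**
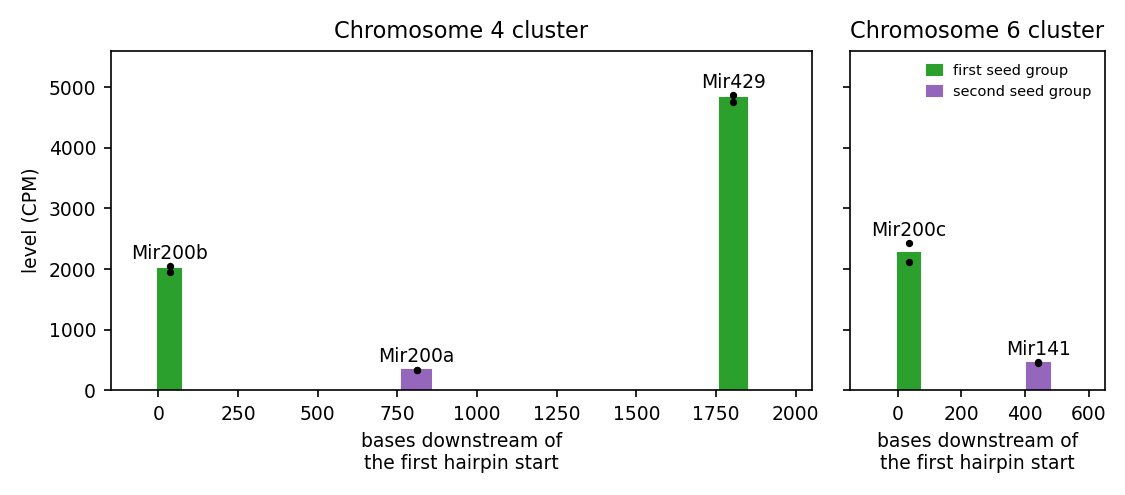
Level in CPM against the distance in bases from the start of the first hairpin on the transcribed strand, for the chromosome 4 and chromosome 6 clusters. Bars are means of both pups drawn at the width of the hairpin gene, points are the pups, green marks the seed AAUACUG and purple AACACUG; the purple member is the lowest in each cluster.

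Unequal counts of neighbouring miRNA genes were common in these libraries. Among 7 other groups of 3 detected genes on 1 strand with at most 2000 bases between neighbours, the highest member was 31.9-fold above the lowest at the median, against 14.2-fold on chromosome 4. Among 31 other such pairs the median was 3.88-fold, with quartiles of 1.75 and 24.2, against 4.99-fold for Mir200c and Mir141. Both miR-200 clusters lay between the quartiles, which were 8.39 and 79.4 for groups of 3. Some of the other groups hold genes with long shared runs, such as Mir27a (20 bases) and Mirlet7b (19 bases). Reads of such genes can map to several places and go uncounted, so the folds of those groups are uncertain. The longest run of a miR-200 hairpin with another hairpin was 17 bases, between Mir200a and Mir141, the lowest member of each cluster. Their 3p strands share a run of 16 bases. Shortened reads of these genes could therefore also go uncounted, and how many did was not measured. The comparison with other groups was chosen after the values were seen and has no test.

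The chromosome 4 cluster, Mir200b, Mir200a and Mir429, together reached 7261 CPM for pup 1 and 7048 CPM for pup 2 (7154 ± 151). The chromosome 6 cluster, Mir200c and Mir141, summed to 2891 and 2562 CPM (2727 ± 233). Chromosome 4 thus gave 71.5% of the family's counts in pup 1 and 73.3% in pup 2. The ratio of the clusters was 2.51 in pup 1 (2.47 to 2.55) and 2.75 in pup 2 (2.69 to 2.82). These intervals did not overlap, and the ratio within a library does not depend on how libraries are scaled. Per member the chromosome 4 genes averaged 1.75-fold the chromosome 6 genes.

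**Figure D3:**
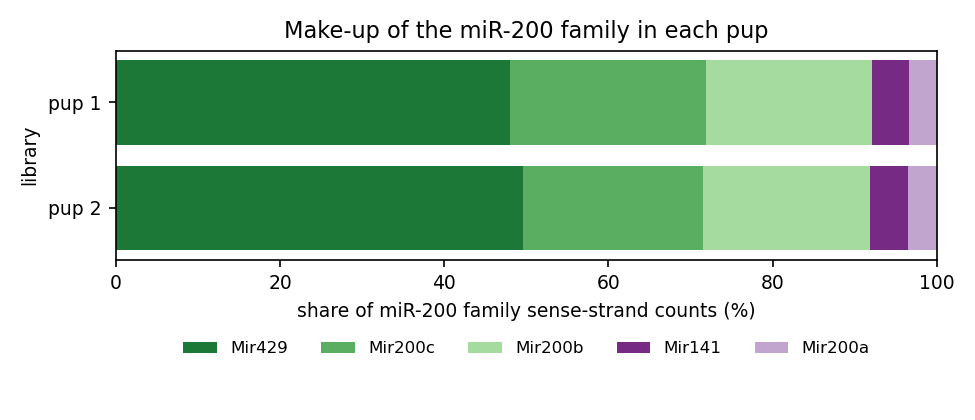
Share in percent of the family's sense-strand counts held by each member in pup 1 and pup 2. Green shades are the 3 genes with the seed AAUACUG, 92.1% and 91.8% together, and purple shades the 2 genes with AACACUG; Mir200c takes 23.9% in pup 1 and 22.0% in pup 2.

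The spread between the littermates was small for 4 members and larger for Mir200c. Mir200c was 1.13-fold higher in pup 1 than in pup 2, a log2 ratio of pup 2 over pup 1 of -0.18 with a counting SE of 0.020. It was the 1 member of 5 that passed the two-sided exact binomial test after Benjamini-Hochberg adjustment over all 362 tested genes (adjusted p = 2.78e-18), while 32.3% of tested genes passed, 13.3% as higher in pup 1. This test sets 2 libraries against read counting noise and compares no condition. A test of deeper genes alone raised both shares: with at least 100 counts 46.8% passed, 20.2% as higher in pup 1, and with at least 1000 counts, as all members have, 62.1% passed, 28% as higher in pup 1. In both of these Mir200b passed beside Mir200c, 2 of 5 members. With the spread estimated from these same libraries (edgeR's exact test with a common dispersion), no member passed (adjusted p = 1.0 for Mir200c), and 5 of the 362 genes did, or 1.38%. Without adjustment that edgeR test put 0 of 5 members and 17 of 362 genes under 0.05. Its spread was estimated from the same pup differences that it tests. A failure to pass it therefore cannot show that the pups were alike.

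For Mir200b the log2 ratio was -0.048 (counting SE 0.021) and the adjusted p of the exact binomial test 0.058. With total count scaling Mir200b and Mir429 also passed as higher in pup 1, so that 3 of 5 members passed against 34% of all tested genes, 17.7% as higher in pup 1. The same 3 members passed under DESeq2 size factors, against 34.5% of all genes and 19.1% as higher in pup 1. In counts of both strands Mir200b and Mir200c passed, 2 of 5 against 33.6%. The share of members that passed thus lay below that over all genes in the main test and above it in these 3 settings. With 5 members neither is a result about the family. The shares over all genes also include thinly counted genes, unlike the members, and no share of deeper genes alone was taken in these 3 settings. The log2 ratios were -0.010 for Mir429 (95% interval -0.036 to 0.016), -0.028 for Mir141 (-0.113 to 0.057) and 0.023 for Mir200a (-0.075 to 0.121). The median log2 ratio of the family was -0.028, against 0.034 over all tested genes. Beyond counting error, the ratio of Mir200c to Mir141 differed between the pups, as its intervals did not overlap. These intervals do not cover spread between libraries, so a different shift of the 2 genes of chromosome 6 was not tested.

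**Figure D4:**
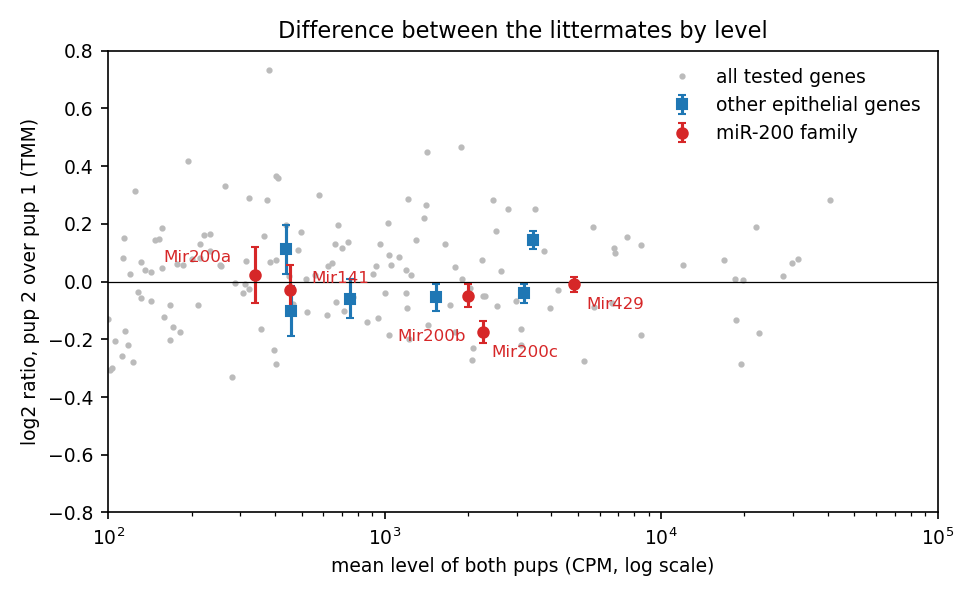
Log2 ratio of pup 2 over pup 1 after TMM scaling against the mean level in CPM (log scale), for the 154 of 362 tested genes that fall inside the axes. Red circles are the miR-200 genes and blue squares 6 other epithelial genes, with 95% counting intervals; Mir200c lies lowest of the red circles at -0.18.

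Signs of other cell types also differed between the pups. The 6 measured blood cell genes, all detected, had a sum of 1201 CPM for pup 1 against 2357 CPM for pup 2. Most of that difference was Mir223, a myeloid miRNA, at 396 and 1274 CPM. The erythroid Mir144 (288 and 471 CPM) and Mir451a (357 and 452 CPM) were also higher in pup 2 by the exact binomial test, whereas Mir155, Mir150 and Mir486 did not pass, and the list's median log2 ratio was 0.26. Mir142 has no row of its own and is not in the sum. Mir122 of hepatocytes was at 112 and 31.6 CPM, and 4 genes of intestine and kidney summed to 105 and 146 CPM. The 3 genes of pancreas and neuroendocrine cells were at 52.4 and 109 CPM, and Mir126a of endothelium at 19915 and 19646 CPM. Of 5 genes of multiciliated cells, which summed to 369 and 365 CPM, 3 were detected. Most of that sum was Mir34c, at 251 and 257 CPM. Smooth muscle genes, 2 of 3 detected, were at 53.8% and 53.5% of counts, nearly all Mir143, and 7 mesenchymal genes at 5.67% and 5.34%. Most of the latter came from the broadly expressed Mir21a (30637 and 31783 CPM) and Mir22 (21446 and 17315 CPM), with Mir214 next at 4112 and 3797 CPM. The part of these shifts in the Mir200c difference was not tested. In the lists of smooth muscle, mesenchyme and other epithelial genes, 2 of 3, 7 of 7 and 6 of 6 were detected, against 335 of all 1973 genes. The lists of intestine and kidney (4 of 4), pancreas and neuroendocrine cells (3 of 3) and liver (1 of 1) were also detected in full. Detection alone therefore does not tell tissues apart.

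The other epithelial miRNAs served as a reference for the family, since they are known from epithelia and are made from other loci. Which cells of these whole bladders made them was not measured. Mir205, a miRNA of basal and stratified epithelia that also represses Zeb1 and Zeb2, was at 3284 and 3568 CPM. Mir203, which promotes differentiation of stratified epithelium, was at 3247 and 3106 CPM. Mir182, Mir183 and Mir96 form a cluster known from sensory and other epithelia and had means of 1532, 748 and 458 CPM, and Mir31 had 440 CPM. Mir429 was above each of these 6 genes in both pups. It was 1.48-fold above Mir205 in pup 1 and 1.33-fold in pup 2, or 1.15-fold per annotated base.

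Summed, the 6 genes came to 9778 CPM for pup 1 and 9782 CPM for pup 2, close to the family. The ratio of the family to the list was 1.04 in pup 1 (1.03 to 1.05) and 0.982 in pup 2 (0.968 to 0.997), on either side of 1. By the exact binomial test Mir205 (log2 ratio 0.14) and Mir31 (0.11) passed as higher in pup 2 and Mir203 (-0.040) as higher in pup 1, 3 of 6 against the 32.3% of all tested genes. Mir205 and Mir200c, the genes of each list with the lowest adjusted p, thus passed in opposite directions, and they also did so with total count scaling and DESeq2 size factors. Under those scalings Mir31 no longer passed, and Mir182, Mir183 and Mir96 passed beside Mir203 as higher in pup 1, 4 of 6 against the 17.7% and 19.1% of all genes. With at least 100 or at least 1000 counts 5 of the 6 passed, Mir96 and Mir182 being added as higher in pup 1, against 46.8% and 62.1% of genes. With no filter on low counts Mir205 alone passed, against 15.6% of genes. None of the 6 passed edgeR's exact test after adjustment.

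A second list held 10 miRNA genes known to repress Zeb or Snail factors, the regulators on the other side of the epithelial switch, and Mir205 and Mir203 belong to both lists. Its sum was 8952 CPM for pup 1 and 9124 CPM for pup 2. After Mir205 and Mir203 the most abundant was Mir101b at 1903 ± 14.5 CPM. Mir34a was at 178 ± 3.1 CPM, Mir132 at 136 ± 1.1 CPM and Mir101a at 94.8 ± 9.9 CPM. Mir192 and Mir215, of kidney and gut epithelium, were at 66.1 ± 11.6 and 20.9 ± 10.1 CPM, and Mir138-2 and Mir138-1 at 21.7 and 14.9 CPM. Mir101a and Mir101b share a run of 20 bases and the Mir138 genes one of 24, so their values are uncertain. In this list 4 of 10 genes, Mir205, Mir101a, Mir192 and Mir215, passed the exact binomial test as higher in pup 2, against 19.1% of tested genes, and Mir203 as higher in pup 1. Without a filter on low counts neither Mir101a nor Mir203 passed, Mir101a also failed under total count scaling and under DESeq2 size factors, and edgeR's exact test called none of the 10 after adjustment. The median log2 ratio was 0.060.

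The genes outside the family most like each member were those with the smallest largest difference in log2(CPM + 1) over the 2 libraries. Mir200a was nearest to Mir320 (largest difference 0.014) and Mir450b (0.093), and Mir141 to Mir27a (0.037) and Mir96 (0.044). Mir200b was nearest to Mir151 (0.039) and Mir101b (0.098), and Mir200c to Mir27b (0.063) and Mirlet7b (0.086). Mir429 had no close match, its nearest being Mir127 (0.20) and Mir351 (0.25). Over 2 libraries this measures likeness of level. Mir27a and Mir27b share 20 bases with each other, Mir101b shares 20 with Mir101a, and Mirlet7b and Mir450b share 19 with another hairpin. The levels of these genes are therefore uncertain. Mir151, Mir320 and Mir351 had no hairpin under that symbol in the RefSeq table, so shared runs could not be checked for them.

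No count fell on the strand opposite any of the 5 genes in either library, which allows up to 0.402 CPM for pup 1 and 0.825 CPM for pup 2 (3 counts). The members' sense counts are therefore the same in counts of both strands.

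Zeb2, a classical target, shows how the seeds differ in the letters they pair with; target messages were not measured here. Searched on the message strand of the longest annotated 3′ UTR (4941 bases, GENCODE M21), CAGTATT, which pairs with the first seed, occurred 5 times. The motif CAGTGTT, which pairs with the seed of Mir200a and Mir141, occurred 4 times. No matches overlapped. Of these matches, 4 and 2 were followed by an A, which faces base 1 of the miRNA. Over 927 windows of the same length, 38.1% held at least 1 CAGTATT and 50.3% at least 1 CAGTGTT. The windows came only from annotated 3′ UTRs of at least that length, Zeb2 included. In the 3′ UTR of Zeb1 (2401 bases) the counts were 5 and 4, with 22.6% and 30.9% of 5455 windows of that length holding each. A neighbouring pair of Zeb2 sites, 1 for each seed, is shown with the seed match in capitals.
chr2:44987736-44987764, minus strand, GRCm38: agcacccgtgtCAGTATTagacgactagg
chr2:44987774-44987802, minus strand, GRCm38: tgcaccagcttCAGTGTTaagctcaccgt
The first site matches the seed of the group at 9086 ± 372 CPM in these bladders, and the second that of the group at 795 ± 11.6 CPM. These levels count whole hairpins with both arms, so they are not levels of the seeds themselves.

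**Figure D5:**
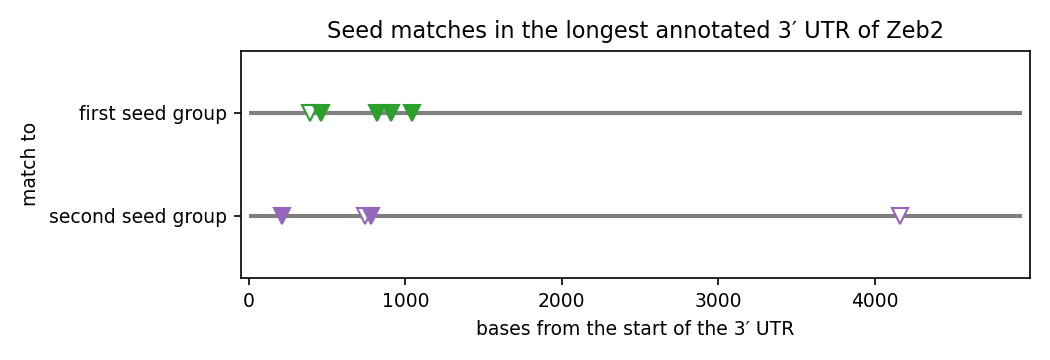
Positions of the matches to each seed along the longest annotated 3′ UTR of Zeb2, in bases from its start. Green marks matches to AAUACUG (5) and purple matches to AACACUG (4), and filled marks are those followed by an A, 4 and 2; all but 1 of the 9 start at base 1039 or before, and the last starts at base 4163.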

How the data were processed

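The authors deposited 1 table of raw counts per library, with reads counted per annotated miRNA gene on both strands, the sense strand and the opposite strand; the column order was read from the values. The assembly was mm10 and the annotation GENCODE M4, per the README files deposited with the tables; which aligner and counter made them is not given in the sources used here. Lines of unassigned reads, 34.1% of reads in pup 1 and 35.2% in pup 2, stayed out of library sizes and tests. Symbols and positions came from GENCODE M21 (GRCm38) by Ensembl number, for 1894 of 1973 IDs.

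Genes with at least 10 counts summed were tested. TMM factors from edgeR 4.0.16 under R 4.3.3 scaled the libraries, and a two-sided exact conditional binomial test compared the pups, with Benjamini-Hochberg adjustment at 0.05. A quasi-likelihood test has no residual degrees of freedom with 1 library per pup. Log2 ratios used a prior count of 0.5. The test was tried on simulated counts with read counting noise alone. It called 24 of 50 genes changed 1.25-fold and 40 of 50 changed 2-fold in the right direction, and 3 of 170 unchanged genes. The simulation held no further spread between libraries, whereas edgeR's common dispersion put that spread at 13.2% in the data. It therefore cannot show how the test behaves under such spread. Alternatives changed the scaling, count filter, strand, test, fold minimum, prior count and denominator, and left out each pup. Other steps used scipy 1.17.1, numpy 2.4.6, pandas 2.3.3 and, for plots, matplotlib 3.10.9 in Python 3.11.15, while DESeq2 1.42.0 gave alternative size factors. The pups are littermates, so the SDs do not cover differences between litters, and with 1 library per pup animal and library spread cannot be told apart.

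The members and lists were chosen with earlier results of these data known. Named genes are the members, all genes of the other epithelial and Zeb or Snail regulator lists, the 2 genes most like each member, any gene overlapping a member on the opposite strand, and marker genes. Hairpins and mature strands are RefSeq's (GRCm38.p6), and UTRs are the longest per gene in GENCODE M21.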

Additional observations from a re-analysis of the deposited data

How the results depend on the processing

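The order of the members held per 100 bases and in each pup. The family sum was 20796 CPM with Mir143 left out of the total and 6459 CPM per 1000000 of all reads, both by construction, 9567 CPM in counts of both strands, and 9610 to 10153 CPM with 1 pup left out. Leaving out 1 pup gave cluster ratios of 2.51 to 2.75 and seed group ratios of 11.2 to 11.6; per member they were 1.75 and 7.62. The number of members that passed the test of the pups was 3 with total count scaling or DESeq2 size factors, 2 with at least 100 counts, with at least 1000 counts (chosen after seeing the data) or with both strands, and 0 with edgeR's common dispersion or a 2-fold minimum. The genes that passed then numbered 123, 125, 116, 100, 125, 5 and 10 against 117. They split into 59 (pup 2 higher) and 64 (pup 1 higher) with total counts and 56 and 69 with DESeq2 size factors, against 69 and 48. The log2 ratio of Mir200a changed sign, to -0.00082 with total counts and -0.011 with DESeq2 size factors, and did not pass in any setting. That of Mir200c stayed between -0.21 and -0.18. Of the 10 genes named as most like a member, 9 were named again by the mean difference. No paired analysis was possible because the 2 samples form 1 group, and no test of the pups is left when a pup is left out.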
